A study of Mus musculus with 6 samples.

Results

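The genes described here are 7 transcription factor genes of the bile duct lineage: Sox9, Sox4, Sox17, Onecut1, Onecut2, Glis3 and Hhex. They were listed by name with earlier results of these data known, were matched to the table by Ensembl identifier, and make up 7 of the 52550 genes. All 7 had a mean level of at least 1 TPM (transcripts scaled by gene length and library total) and were among the 22452 genes tested between the stages. RNA was sequenced from GFP-positive liver cells of CD-1 mouse embryos carrying a Sox9-GFP reporter, whose green fluorescence labels the cells in which Sox9 is active. There were 3 libraries (replicates A, B and C) for each of the stages E16.5 and E18.5. Both groups share strain, reporter and described protocol, and differ by stage: the cells were depleted of hematopoietic lineages on magnetic columns and then sorted for GFP. The methods do not state whether the stages were sorted or sequenced together. According to the methods each library came from a pool of 15 livers. The labels write the stages as days 16 and 18, and do not state whether the pools came from separate litters, so p-values measure the spread between these libraries. Because the sort used Sox9 expression, the level of Sox9 in these cells was set in part by the gate, and any cell type with an active reporter could have entered it.

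Cholangiocytes, the cells that line bile ducts, arise from hepatoblasts, the bipotential progenitors that also give rise to hepatocytes. SOX9 and SOX4 are HMG-box factors that act downstream of Notch and TGF-beta signaling in the forming ducts, and SOX9 marks the ductal plate from its appearance. ONECUT1 (also called HNF6) and ONECUT2 carry a CUT domain and a homeodomain and act early, in the choice between the hepatocyte and biliary fates and in duct formation. GLIS3 is a zinc finger factor whose loss causes cystic bile ducts and pancreas defects. HHEX is a homeodomain factor needed for the liver bud and later for bile duct development. SOX17 acts in endoderm, in the progenitors of the extrahepatic biliary tract and gallbladder, and in vascular endothelium.

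Positions are on GRCm38 with the GENCODE vM21 annotation. Sox9 (ENSMUSG00000000567.5) occupies 112782224 to 112787760 of chromosome 11 on the forward strand, and Sox4 (ENSMUSG00000076431.4), a gene of 1 exon, occupies 28948919 to 28953713 of chromosome 13 on the reverse strand. Sox17 (ENSMUSG00000025902.13) is at 4490931 to 4497354 of chromosome 1, reverse strand, and Onecut1 (ENSMUSG00000043013.10) at 74861921 to 74891781 of chromosome 9, forward strand. Glis3 (ENSMUSG00000052942.13) spans 28258851 to 28680077 on the reverse strand of chromosome 19, and Hhex (ENSMUSG00000024986.11) spans 37434810 to 37440731 on the forward strand of that chromosome. Of the exon sequence of Sox4, 54.6% is shared with Gm26735 on the opposite strand, and of that of Sox17, 16.9% is shared with Gm37587 on the opposite strand. Of that of Onecut1, 52.8% is shared with Gm20649, a noncoding gene on the same strand that is listed at 0 in every library. Reads in shared stretches could have been dropped by the counter. For Sox4 and Sox17 this depends on its strand mode, which is not given in the sources used here. For Onecut1 the shared stretch is on the same strand, so the strand mode does not separate the genes there.

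The 250 bases upstream of the start were read from the RefSeq promoter table (GRCm38.p6), which held 4 of the 7 genes. They are printed for Glis3, the gene with the largest change among the 7, and for Onecut1 and Sox4 as factors with a smaller one. The last 14 of the 250 bases of Sox4 lie inside its GENCODE gene and are left off. Each is written 5′ to 3′ on the strand of its gene, at chr19:28680078-28680327 for Glis3, chr9:74861671-74861920 for Onecut1 and chr13:28953714-28953949 for Sox4, with CpG dinucleotides in capitals.
Glis3: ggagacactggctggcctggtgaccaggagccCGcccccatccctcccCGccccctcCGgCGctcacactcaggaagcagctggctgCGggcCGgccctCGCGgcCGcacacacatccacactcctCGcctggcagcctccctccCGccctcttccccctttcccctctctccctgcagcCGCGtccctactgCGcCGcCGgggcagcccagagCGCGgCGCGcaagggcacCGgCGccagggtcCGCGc
Onecut1: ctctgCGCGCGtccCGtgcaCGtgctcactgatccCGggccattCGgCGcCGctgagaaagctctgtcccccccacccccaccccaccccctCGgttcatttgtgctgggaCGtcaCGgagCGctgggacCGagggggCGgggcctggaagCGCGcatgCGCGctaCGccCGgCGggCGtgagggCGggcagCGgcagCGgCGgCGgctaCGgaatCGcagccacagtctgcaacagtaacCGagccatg
Sox4: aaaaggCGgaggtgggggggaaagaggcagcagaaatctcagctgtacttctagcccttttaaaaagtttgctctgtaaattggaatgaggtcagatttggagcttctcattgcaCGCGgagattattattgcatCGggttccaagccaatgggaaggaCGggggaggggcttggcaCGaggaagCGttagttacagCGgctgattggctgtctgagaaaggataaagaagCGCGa
Glis3 has 24 CpG in this window with 75.6% G and C, and Onecut1 has 31 with 71.6%. Over its full 250 bases Sox4 has 11 CpG with 50.8% G and C, beside a median of 6 CpG and 52.4% over the 32851 promoters in the table. Hhex, not printed because its RefSeq start lies 31 bp inside the GENCODE gene, has 32 CpG and 76.0%. The windows from 250 bases before to 50 after the start were also searched on both strands for the Onecut core ATTGAT, the Sox core ACAAAG and its variants with the ending ATG (ACAATG) or ATA (ACAATA), the RBPJ core TGGGAA and the box TATAAA. The search found 1 match in the 4 promoters, the RBPJ core in Sox4 on the strand of the gene at position -100 from the start, a core that 25.6% of all promoters hold. The other cores occur in 7.54% (ATTGAT), 18.7% (ACAAAG), 12.6% (ACAATG), 9.13% (ACAATA) and 13.6% (TATAAA) of all promoters.

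The libraries held between 13093937 and 26206374 recovered reads, with every E18.5 library shallower than every E16.5 library. Replicate C of E16.5 stood apart from replicates A and B. It was the lowest E16.5 library for all 7 genes. The summed level of 12 cholangiocyte markers was 889 TPM there, beside 2232 and 2732 TPM in replicates A and B and between 8460 and 14364 TPM at E18.5. Its summed levels of 11 hepatoblast markers (225951 TPM) and 8 megakaryocyte markers (9383 TPM) were the highest of the 6 libraries. Hepatoblast markers came to between 178057 and 225951 TPM at E16.5 and between 41396 and 102324 TPM at E18.5, and megakaryocyte markers fell from between 3222 and 9383 TPM to between 94.6 and 748 TPM. In every library most of the cholangiocyte sum came from Spp1, with 469 to 1767 TPM at E16.5 and 6629 to 12121 TPM at E18.5. Most of the hepatoblast sum came from Alb, with 117854 to 148077 TPM at E16.5 and 30024 to 70152 TPM at E18.5. In bulk RNA, a change in the share of cells of a type and a change in RNA per cell cannot be told apart, and the part of these cell type differences in the values that follow was not tested.

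Of the 7 genes, 6 rose from E16.5 to E18.5 (limma, Benjamini-Hochberg adjusted p under 0.05), where 26.0% of all genes tested rose, 5.22% fell and 31.2% changed in either direction. The libraries of the stages did not overlap for the same 6 genes, all higher at E18.5, beside 45.0% of all genes tested that were higher without overlap and 53.3% without overlap in either direction. Since the 7 genes were chosen with results known, these counts are a description. The median log2 fold change was 1.37 over the 7 genes and 0.42 over all genes tested, a shift toward higher TPM at E18.5 that the table as a whole carries. Fold changes are differences of mean log2(TPM + 1), E18.5 minus E16.5, and this scale makes the change of low genes look smaller. With median-of-ratios scaling, which brings the median of all genes to 0.01, 4 of the 7 genes were called, beside 17.3% of all genes tested (6.82% higher and the rest lower), and every one but Sox17 kept its direction. The log2 fold changes of the other 6 exceeded the median of all genes under each scaling tried. Without replicate A of E18.5, 1 of the 7 genes was called (Glis3) beside 6.57% of all genes tested, and without replicate B of E18.5, 3 were called beside 13.1%.

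**Figure D1:**
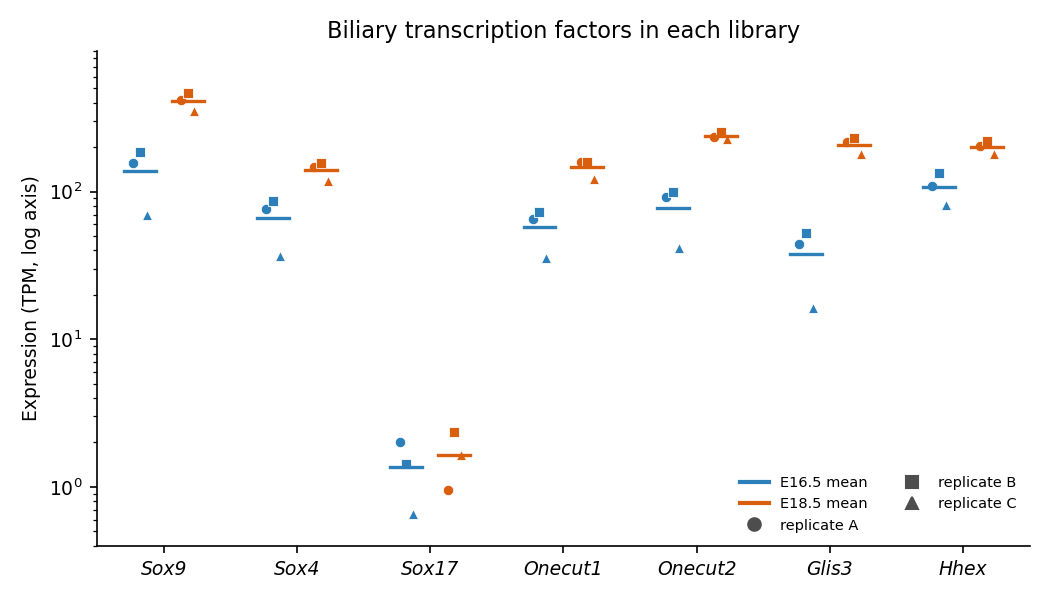
Level of each of the 7 transcription factor genes in TPM on a log axis, with symbols for replicates A, B and C, horizontal bars for the stage means, and colors for E16.5 and E18.5. For 6 genes the 3 E18.5 libraries lie above the 3 E16.5 libraries, and Sox17 sits near 1 TPM at both stages with overlapping libraries.

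Sox9, the gene behind the reporter, measured 157, 186 and 69.5 TPM in the E16.5 replicates A, B and C, and 415, 466 and 353 TPM in those of E18.5. Values of the other genes follow in the same order. Every E18.5 library lay above every E16.5 library, and replicate C was the lowest at both stages. The means were 138 ± 60.7 TPM (SD, n = 3) and 411 ± 56.4 TPM, and the log2 fold change was 1.68 with a standard error (SE) of 0.35 (limma, adjusted p = 0.0174). Without replicate C of E16.5 it was 1.25 (adjusted p = 0.0130, limma), and the call was lost without replicate A (1.67, adjusted p = 0.0587) or B (1.59, adjusted p = 0.0531) of E18.5. Sox4 had 76.5, 86.4 and 36.7 TPM at E16.5 and 148, 157 and 118 TPM at E18.5. Its stages did not overlap either, with means of 66.5 ± 26.3 TPM (SD, n = 3) and 141 ± 20.1 TPM. The log2 fold change of Sox4 was 1.15, SE 0.31 (limma, adjusted p = 0.0328). Its call was lost with median-of-ratios scaling (0.70, adjusted p = 0.11) and with quantile normalization (0.94, adjusted p = 0.0646), and without replicate C of E16.5 its log2 fold change was 0.78 (adjusted p = 0.0271). It was not called without replicate A of E16.5 (1.30, adjusted p = 0.0519) or replicates A (adjusted p = 0.0910) or B (1.07, adjusted p = 0.0903) of E18.5 (limma).

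Sox17 was the exception. It had 2.0, 1.42 and 0.66 TPM at E16.5 and 0.95, 2.34 and 1.65 TPM at E18.5, and the libraries of the stages were interleaved. These values rest on 82, 53 and 25 reads and on 31, 57 and 32 reads. Exact 95% Clopper-Pearson intervals, which cover counting error only, ran from 1.59 to 2.49 TPM, from 1.07 to 1.86 TPM and from 0.43 to 0.97 TPM at E16.5, and from 0.65 to 1.35 TPM, from 1.77 to 3.03 TPM and from 1.13 to 2.33 TPM at E18.5. At E16.5 the interval of replicate C lay below those of A and B, which overlapped, and at E18.5 those of A and B were apart while that of C overlapped both. The limit of 3 reads lay between 0.0733 and 0.155 TPM, below every value. The means were 1.36 ± 0.68 TPM (SD, n = 3) and 1.65 ± 0.69 TPM, with a log2 fold change of 0.17, SE 0.36 (limma, adjusted p = 0.723). Its direction turned with median-of-ratios scaling (-0.08), with quantile normalization (-0.21), without replicate C of E16.5 (-0.06) and without replicate B of E18.5 (-0.01).

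Onecut1 had 65.3, 72.7 and 35.6 TPM at E16.5 and 158, 158 and 121 TPM at E18.5. The E18.5 libraries were all higher, with replicates A and B closely alike at that stage. The means were 57.9 ± 19.6 TPM (SD, n = 3) and 146 ± 21.2 TPM, and the log2 fold change was 1.37, SE 0.27 (limma, adjusted p = 0.0154). Its paralog Onecut2 (ENSMUSG00000045991.18, chromosome 18, 64340020 to 64400987, forward strand) had 91.4, 99.3 and 41.8 TPM at E16.5 and 235, 253 and 227 TPM at E18.5. Again no E16.5 library reached an E18.5 library. The means of Onecut2 were 77.5 ± 31.2 TPM (SD, n = 3) and 238 ± 13.4 TPM, and its log2 fold change was 1.70, SE 0.31 (limma, adjusted p = 0.0137). Without replicate C of E16.5 the log2 fold changes were 1.06 for Onecut1 and 1.31 for Onecut2 (limma, adjusted p = 0.0156 and 0.00939). Without replicate A of E18.5 neither was called (1.31 and 1.71, adjusted p = 0.0574 and 0.0506, limma).

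Glis3 changed most of the 7 genes. It had 44.2, 52.5 and 16.3 TPM at E16.5 and 216, 229 and 180 TPM at E18.5, from 1148 to 13049 reads per library. The lowest E18.5 library was well above the highest E16.5 library. The means were 37.7 ± 19 TPM (SD, n = 3) and 208 ± 25.2 TPM, a ratio of 5.54, and the log2 fold change was 2.59, SE 0.40 (limma, adjusted p = 0.0105). Of all genes tested, 99.7% had a lower log2 fold change. Without replicate C of E16.5 it was 2.08 (limma, adjusted p = 0.00939). Glis3 passed the threshold in all 16 alternatives run, with log2 fold changes from 2.08 to 2.90 and adjusted p from 0.00381 to 0.0449 (limma).

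Hhex had 109, 134 and 81.5 TPM at E16.5 and 205, 220 and 179 TPM at E18.5. The stages did not overlap, and the spread at E16.5, 1.64 times from lowest to highest, was the smallest of the 7 genes. The means were 108 ± 26.3 TPM (SD, n = 3) and 201 ± 21.0 TPM, with a log2 fold change of 0.91, SE 0.19 (limma, adjusted p = 0.0176), the smallest among the 6 genes that rose. Without replicate C of E16.5 it was 0.73 (adjusted p = 0.0283), and with median-of-ratios scaling it was 0.46 and not called (adjusted p = 0.0676, limma). The call was also lost without replicate A (0.90, adjusted p = 0.0615) or B (0.85, adjusted p = 0.0528) of E18.5. For each of the 6 genes that rose, the exact two-sided permutation test on TPM gave p = 0.1, the smallest value that 3 against 3 libraries allow, and for Sox17 it gave 0.7.

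**Figure D2:**
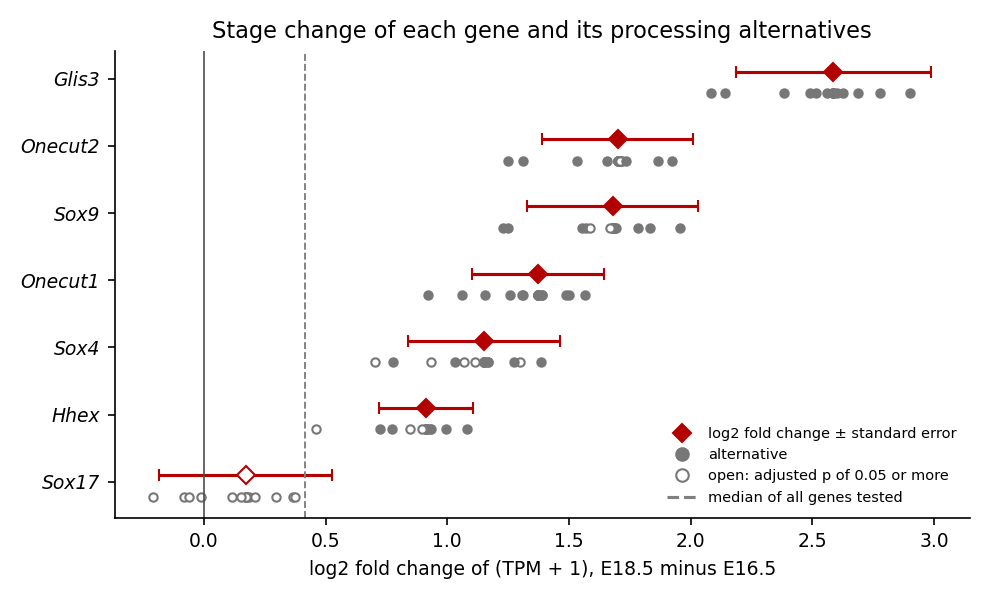
Log2 fold change of TPM + 1, E18.5 minus E16.5, for each gene (diamond, with bars of 1 standard error) and under each processing alternative (circles, open where the adjusted p was 0.05 or more), with a dashed line at the median of all genes tested, 0.42. Glis3 lies farthest to the right, between 2.08 and 2.90 in the alternatives, and the circles of Sox17 fall on both sides of 0.

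The order of the levels differed between the stages. TPM is scaled by gene length, here the merged length of all annotated exons, so levels of different genes can be set side by side within limits. A gene expressed mainly as transcripts shorter than that length would be placed lower. Reads lost in the shared exon stretches of Sox4 and Onecut1 would also lower their places. At E16.5 the order by mean was Sox9, Hhex, Onecut2, Sox4, Onecut1, Glis3 and Sox17. Of the neighbors in that order, only Glis3 and Sox17 had libraries that did not overlap, although each gene from Hhex down was above the next in 3 of 3 libraries. Sox9 was above Hhex in 2 of 3. At E18.5 the order was Sox9, Onecut2, Glis3, Hhex, Onecut1, Sox4 and Sox17. The libraries of Sox9 and Onecut2, of Hhex and Onecut1, and of Sox4 and Sox17 did not overlap, whereas Onecut2, Glis3 and Hhex overlapped in turn, as did Onecut1 and Sox4. Within each library of E18.5, every gene was above the next in this order (3 of 3 libraries). Among the 21819 protein-coding genes listed, Glis3 was above 83.5% at E16.5 and 98.2% at E18.5, Sox9 above 97.0% and 99.3%, and Sox17 above 40.2% and 38.6%.

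To compare the genes with less influence of the scaling between libraries, each was set against Sox9 within the same library, as the log2 ratio of TPM + 1. The added 1 leaves the ratio of a low gene partly dependent on that scaling. Glis3 was nearer to Sox9 at E18.5, with a log2 ratio of -1.81, -1.81 and -2.03 in the E16.5 libraries and -0.94, -1.02 and -0.96 in the E18.5 libraries. The mean was higher by 0.91, and in TPM its mean went from 27.4% to 50.7% of that of Sox9. Hhex differed in the other direction, from -0.53, -0.47 and 0.23 to -1.02, -1.08 and -0.98, a change of -0.77 (from 78.6% to 48.9% of Sox9). In replicate C of E16.5 Hhex was above Sox9, and without that library its change was -0.52. Sox4 was also lower against Sox9, from a mean log2 ratio of -1.01 ± 0.099 (SD, n = 3) to -1.54 ± 0.046, and Onecut1 went from -1.18 ± 0.21 to -1.49 ± 0.089. Without replicate C of E16.5 the change of Onecut1 was -0.19, beside -0.31 with it. For Onecut2 no difference was detectable, with a mean log2 ratio of -0.80 ± 0.091 at E16.5 and -0.78 ± 0.13 at E18.5 and overlapping libraries (change 0.02, exact permutation p = 0.9). The log2 ratio of Onecut1 to Onecut2 went from -0.48, -0.44 and -0.22 to -0.57, -0.67 and -0.89, a change of -0.33. Sox17 changed by -1.51 against Sox9, and its mean TPM was 0.989% of that of Sox9 at E16.5 and 0.40% at E18.5. In its own TPM Sox17 was not called (log2 fold change 0.17), while Sox9 rose by 1.68. Hhex, Sox4 and Onecut1, lower against Sox9, rose in TPM by less than Sox9, whose level was set in part by the gate.

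For 6 of the 7 ratios the stages did not overlap, which gave an exact two-sided permutation p = 0.1 each, the smallest possible, and an adjusted p of 0.117 over the 7 pairs. Ratios to Sox9 were not computed for other genes, so no share over all genes stands beside this count. In TPM alone the stages did not overlap for 53.3% of all genes tested. Sox9, the reference in every pair but Onecut1 to Onecut2, itself rose without overlap. No ratio passed the threshold, and none could at this number of libraries.

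**Figure D3:**
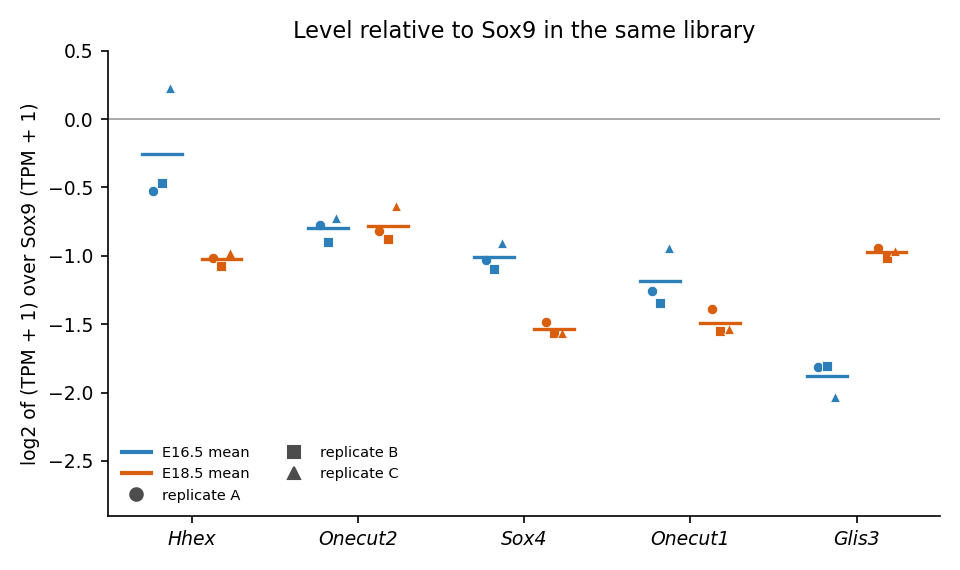
Log2 of TPM + 1 of each gene over TPM + 1 of Sox9 in the same library, with symbols for replicates, bars for stage means and colors for stages; Sox17 is left out because its ratios lie far below. Glis3 lies higher at E18.5 and Sox4, Onecut1 and Hhex lower, while the stages of Onecut2 overlap.

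Genes annotated within 10 kb of the 7 genes were examined next. Inside Glis3, on the same strand, lies the noncoding gene 4933413C19Rik, from 28580533 to 28583294 on chromosome 19. It had 9.57, 9.25 and 4.35 TPM at E16.5 and 44.5, 50.6 and 35.4 TPM at E18.5. Its stages did not overlap, and its log2 fold change was 2.40, SE 0.29 (limma, adjusted p = 0.00815), close to that of Glis3. Since the gene lies in an intron of Glis3 on the same strand and the libraries were made from total RNA, reads from unspliced Glis3 transcripts and from 4933413C19Rik cannot be told apart.

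BC006965, a noncoding gene on the strand opposite to Sox9, has its start 248 bp from that of Sox9 (chromosome 11, 112663927 to 112781976). It had 15.6, 16.1 and 5.78 TPM at E16.5 and 47.5, 53.9 and 41.7 TPM at E18.5, with replicate C of E16.5 again the lowest. Its log2 fold change was 1.96, SE 0.36 (limma, adjusted p = 0.0137), beside 1.68 for Sox9, and without replicate A of E18.5 it was 1.96 and not called (adjusted p = 0.0511). Gm11681, 4971 bp from Sox9, averaged 9.89 ± 0.99 TPM (SD, n = 3) and then 15 ± 5.18 TPM with overlapping libraries, and was not called (0.50, adjusted p = 0.184).

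Upstream of Onecut1 on the same strand, with a gap of 1787 bp, lies Gm16551 (chromosome 9, 74847983 to 74860134). It had 24.7, 33.4 and 10.2 TPM at E16.5 and 73.2, 84.4 and 69.3 TPM at E18.5, all higher at the later stage. Its log2 fold change was 1.83, SE 0.38 (limma, adjusted p = 0.0176), a call lost without replicate A (1.85) or B (1.75) of E18.5. Gm28182, on the opposite strand 6536 bp away, rose by 1.16, SE 0.34 (adjusted p = 0.0406), a call that held in 8 of 16 alternatives. Gm38345, on the opposite strand 154 bp from Hhex, had 15.9, 13.3 and 13.5 TPM at E16.5 and 10.9, 12.4 and 12.1 TPM at E18.5. Every E18.5 library lay below every E16.5 library, but its log2 fold change of -0.25 was not called (limma, adjusted p = 0.227). St8sia3os, 6314 bp from Onecut2, was not called either (0.98, adjusted p = 0.0668, limma), and the neighbors of Sox4 and Sox17 were below 1 TPM.

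**Figure D4:**
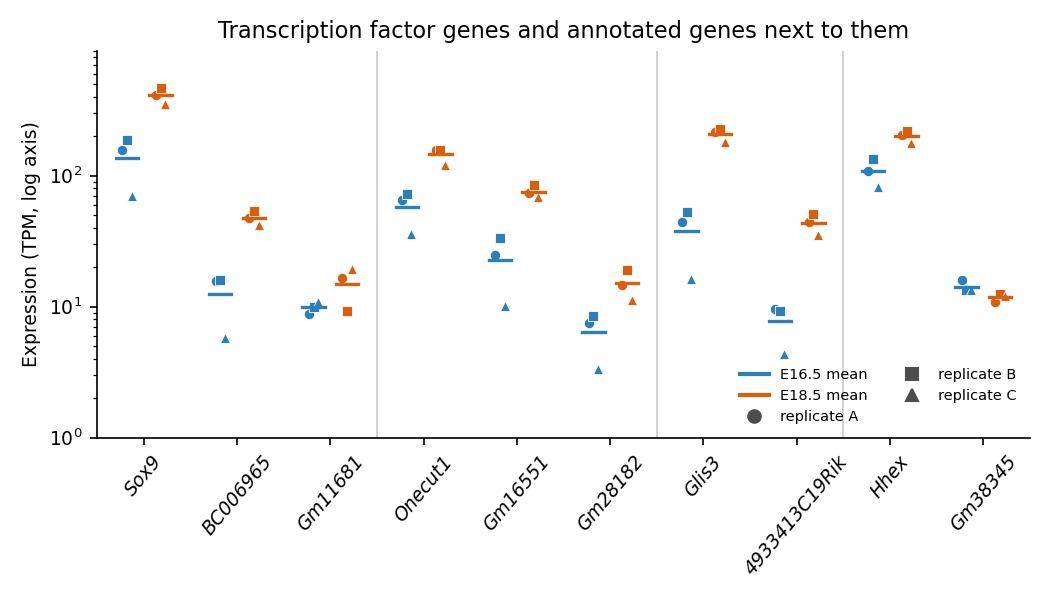
Level in TPM on a log axis of Sox9, Onecut1, Glis3 and Hhex and of annotated genes next to each, with symbols for replicates, bars for stage means and colors for stages. BC006965, Gm16551 and 4933413C19Rik lie below the transcription factor gene beside them and higher at E18.5 than at E16.5, while Gm38345 does not rise with Hhex.

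Related genes of the same families are given next, beside 26.0% of all genes tested that rose and 5.22% that fell. Of 16 other Sox genes, 8 were tested, 2 rose, none fell and 6 were not called (median log2 fold change 0.76), and 2 (Sox2 and Sox14) were listed at 0 in every library. The 2 that rose, Sox5 and Sox6, encode HMG-box factors of the SOXD group without an activation domain of their own. Sox5 had 20.4, 20.6 and 15.4 TPM at E16.5 and 42.2, 43.8 and 38.3 TPM at E18.5, a log2 fold change of 1.11, SE 0.15 (limma, adjusted p = 0.00890). Sox6 went from 11.7 ± 2.65 TPM (SD, n = 3) to 31.3 ± 3.76 TPM, a log2 fold change of 1.36. Both were called in all 16 alternatives.

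Of the 5 other CUT family genes, 3 were tested and 2 rose, Cux1 (0.66) and Cux2 (0.96), with a median of 0.66. Onecut3, the third Onecut paralog, had between 0.551 and 1.07 TPM and was not tested. Of the 5 other Glis and Gli genes, 4 were tested and 1 rose (median 0.65). That gene, Glis2, whose product is a zinc finger factor known from the kidney disease nephronophthisis, had 47.7, 53.8 and 27.5 TPM at E16.5 and 122, 134 and 123 TPM at E18.5. Its stages did not overlap, and its log2 fold change was 1.58, SE 0.24 (limma, adjusted p = 0.0104), called in all 16 alternatives.

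In a list of 21 further transcription factors of the liver, all tested, 10 rose, 2 fell and 9 were not called, with a median log2 fold change of 0.74. Over all genes tested, 26.0% rose and 5.22% fell. Prox1, a homeodomain factor of hepatoblasts and lymphatic vessels, rose by 1.22 (limma, adjusted p = 0.00942), the GATA factor gene Gata6 by 1.21 and Tead1, whose product binds DNA with YAP, by 1.18. Foxa2, an endoderm pioneer factor gene, rose by 1.04 (SE 0.19), from 25.9 ± 5.74 TPM (SD, n = 3) to 53.8 ± 6.82 TPM. Without replicate A of E18.5 the calls of Foxa2 (0.97) and Gata6 (1.19) were lost, and that of Gata6 also without replicate B (1.13). Lhx2, a LIM homeodomain gene known from stellate cells, was called at 1.11 (adjusted p = 0.0452) but in 5 of 15 alternatives. The genes that fell were Hnf4a, a nuclear receptor gene central to the hepatocyte program, and Tbx3, a T-box gene of hepatoblast expansion. Hnf4a had 252, 247 and 255 TPM at E16.5 and 173, 126 and 197 TPM at E18.5, a log2 fold change of -0.62, SE 0.17 (limma, adjusted p = 0.0330). Its call held in 9 of 16 alternatives and was lost without each library but replicate C of E18.5, at log2 fold changes from -0.67 to -0.44. Tbx3 went from 5.25 ± 0.91 TPM (SD, n = 3) to 1.79 ± 0.39 TPM, a log2 fold change of -1.16 that was called in 11 of 15 alternatives, and not without replicates A or B of either stage (-1.18 to -1.05).

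**Figure D5:**
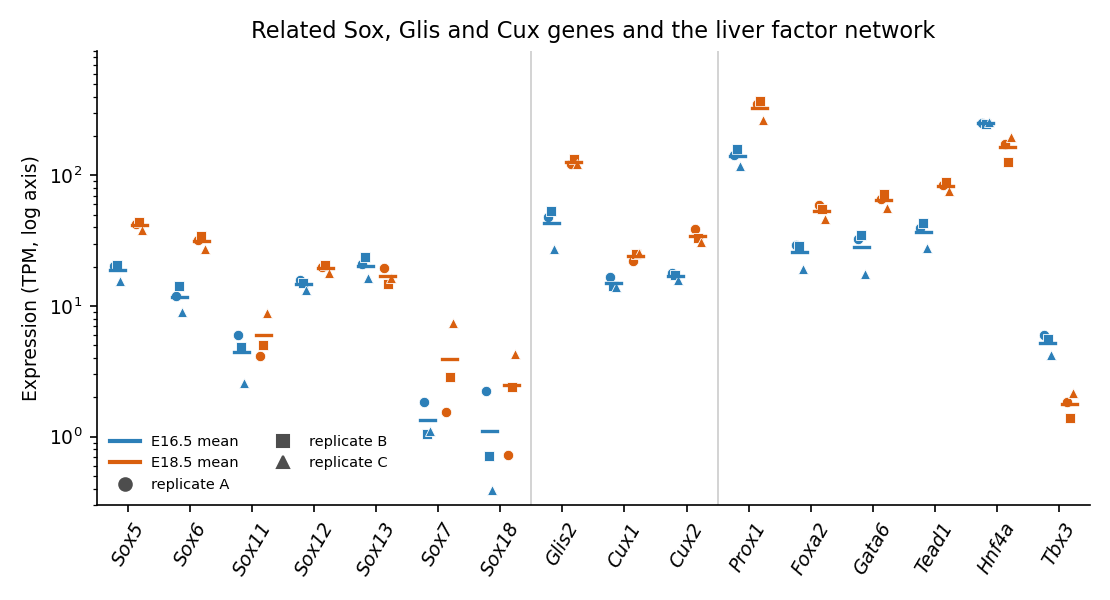
Level in TPM on a log axis of related Sox, Glis and Cux genes and of liver transcription factor genes, with symbols for replicates, bars for stage means and colors for stages. Glis2, Sox5, Sox6 and Prox1 have 3 E18.5 libraries above the 3 E16.5 libraries, and Hnf4a and Tbx3 have them below. Sox12, Cux1, Cux2, Foxa2, Gata6 and Tead1 also have them above, beside 45.0% of all genes tested that were higher without overlap.

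The pattern of each gene over the 6 libraries was compared with that of 118 genes of the lists, by the root mean square (RMS) difference of log2(TPM + 1) after centering each gene on its own mean. A smaller value is a closer pattern, and the points share library and depth. Among the 7 genes, Sox9 and Onecut2 were closest to each other (0.0902) and Glis3 and Sox17 were farthest apart (1.27). Closest to Sox9 was Pkhd1 (0.123), the gene for the ciliary protein fibrocystin, and the 3 closest genes also held Epcam (0.163), beside a median of 0.830 over the candidates. Onecut2 was likewise closest to Pkhd1 (0.101), followed by Glis2 (0.122). Onecut1 was closest to Cdh1 (0.0559), the E-cadherin gene, then to Pkd2 (0.0643).

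Sox4 lay closest to the claudin gene Cldn7 (0.0814), to Vim (0.0844) and to Gata6 (0.0881), and Hhex to Foxa2 (0.127), Yap1 (0.131) and Sox5 (0.144). Glis3 was closest to the secretin receptor gene Sctr (0.216), then to Spp1 (0.349) and Epcam (0.416), with a median of 1.20 over the candidates. Sox17 was closest to Lyve1 (0.125), a marker of sinusoidal and lymphatic endothelium, to Gata4 (0.167) and to the VEGF receptor gene Kdr (0.259). The pattern of Sox17 carries the counting error of 25 to 82 reads per library. The added 1 also shrinks its differences more than those of Lyve1, which had 9.62 to 21.9 TPM. The genes near Sox9, Sox4, Onecut1, Onecut2 and Glis3 included cholangiocyte markers, but only 1 of the 3 for Sox4 and 1 of the 3 for Onecut2. The second closest gene of Sox4, Vim, is of the mesenchyme list. The endothelial list was not uniform: the log2 fold change was -1.07 for Tie1 and 1.10 for Emcn, beside 0.17 for Sox17.

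Marker lists gave the cell types beside which these values stand, and their counts stand beside 26.0% of all genes tested that rose and 5.22% that fell. Of 12 cholangiocyte markers, 10 rose and none fell, and the median of their log2 fold changes was 1.61. The keratin gene Krt19 had 122, 90.7 and 20.1 TPM at E16.5 and 227, 233 and 250 TPM at E18.5, and Epcam had 105, 118 and 33.2 TPM and 273, 307 and 206 TPM. Of 11 hepatoblast markers, Hnf4a among them, none rose and 7 fell (median -1.33), and of 8 megakaryocyte markers all 8 fell (median -4.32). Of 12 endothelial markers, 2 rose and 10 were not called. Their summed level was 223, 141 and 158 TPM at E16.5 and 142, 259 and 270 TPM at E18.5. At E18.5 replicate A was lowest for both this sum and Sox17, whereas at E16.5 the sum was lowest in replicate B and Sox17 in replicate C, and at E18.5 the sum was highest in replicate C and Sox17 in replicate B.

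Of 11 mesenchymal markers tested, 3 rose (median 1.08), with sums of 342 to 517 TPM and 642 to 1125 TPM. Of 11 leukocyte markers tested, 4 rose (median 0.80), and of 8 erythroid markers none was called (median -0.14). The mesenchymal and leukocyte counts stand beside 26.0% of all genes tested that rose. For pancreas and extrahepatic ducts, 10 of 12 markers were tested, and 2 fell, the acinar enzyme genes Ctrb1 and Cpa1. The summed level of that list was 2404 TPM in replicate A of E16.5 and between 32.5 and 245 TPM in the other libraries. Pdx1, a factor of pancreas and extrahepatic duct, had 8.43, 5.70 and 0.290 TPM at E16.5 and 6.44, 5.80 and 4.79 TPM at E18.5, and the pancreatic factor gene Ptf1a was listed at 0 in 5 of 6 libraries. The part of these cell types in the values of the 7 transcription factor genes was not tested.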

How the data were processed

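The authors checked reads from a stranded total RNA kit with FastQC 0.11.7, trimmed them with Trimmomatic, aligned them to GRCm38 with HISAT2 2.1.0, counted reads per gene (HTSeq-count 0.5.4p3, GENCODE vM15) and deposited them as TPM for 52550 genes in 6 libraries, 3 per stage. Each library sums to 1000000. Gene names, positions and exon lengths came from GENCODE vM21 (52403 identifiers matched with the version dropped, 147 did not). TPM times exon length gave whole reads within 0.01 for 100% of 180057 nonzero values of genes with an unchanged version, which gave the depth. Reads for Onecut2 and Hhex, whose gene models differ between the annotations, were not recovered.

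Genes averaging 1 TPM or more over the libraries (22452) entered limma 3.58.1 (R 4.3.3), which fitted log2(TPM + 1) by stage using lmFit and trended eBayes. Adjusted p-values are Benjamini-Hochberg values over all of them, and calls used a threshold of 0.05. Exact permutation tests and Clopper-Pearson intervals were computed with scipy 1.17.1 in Python 3.11.15. On simulated libraries of 21078 genes, the fit called 96% of genes set to change 4-fold and 19% of those set to change 2-fold, with 15 false calls. The simulation gave every gene the same dispersion, changed a small part of the genes and held no shift shared by genes of a library. Its figures therefore do not measure the error in the real libraries.

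The 7 genes and all lists were chosen with earlier results of these data known. Named were the 7 genes, list genes called with an absolute log2 fold change of at least 1, Hnf4a and Foxa2, up to 4 markers per list, genes within 10 kb, and the 3 genes most like each of the 7. A gene that this rule also named is not reported here. Family genes named besides these were chosen after their values were seen. Alternatives were another pseudocount, other filters, scalings and variance settings, a replicate block, leaving out each library, and limma voom on recovered reads. Members missing from the promoter table and protein sequences are not analysed here.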

Additional observations from a re-analysis of the deposited data

How the results depend on the processing

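Every alternative in which they were tested (16, or 15 for Onecut2 and Hhex) kept the direction of the 6 genes that rose. The number of genes called, 7000 with 83.3% of them higher at E18.5, fell to 4282 with no filter on low values, to 3865 with median-of-ratios scaling (39.5% higher) and to 3796 with quantile normalization (50.5% higher), and lay between 1472 and 5686 when a library was left out, the lowest without replicate A of E18.5. Numbers of genes called more than 1.5 times lower also followed from leaving out replicate A (4376) or C (4082) of E16.5 or replicate B of E18.5 (2917). Fewer libraries remain in these fits, and the cause was otherwise not tested. With a library left out, log2 fold changes ranged from 1.25 to 1.95 for Sox9 (not called without replicates A or B of E18.5), from 0.78 to 1.38 for Sox4 (not called without replicate A of E16.5 or A or B of E18.5), from 1.06 to 1.57 for Onecut1 and from 1.31 to 1.93 for Onecut2 (both not called without replicate A of E18.5), from 0.73 to 1.08 for Hhex (not called without A or B of E18.5) and from -0.063 to 0.38 for Sox17 (below 0 without replicate C of E16.5 or B of E18.5). The call of Sox4 was also lost with no filter (1.15, adjusted p = 0.0627, limma), median-of-ratios scaling (0.70), quantile normalization (0.94) and eBayes without the trend (1.15, adjusted p = 0.0513), and that of Hhex with median-of-ratios scaling (0.46). Sox17 turned to -0.082 with median-of-ratios scaling and to -0.21 with quantile normalization. The ratio of Onecut2 to Sox9, a change of 0.02, ranged from -0.050 to 0.071, with -0.029 without replicate B of E16.5 and -0.050 without replicate C of E18.5. With the replicate letters as a block (replicate block), 7314 genes and 6 of the 7 were called. The deviations of same-letter libraries correlated at -0.042 for A, 0.081 for B and 0.14 for C. Those of libraries with different letters correlated at between -0.146 and 0.084. For each of the 6 genes that rose, replicate B was highest and replicate C lowest at both stages. These values cannot show whether the letters pair the samples. The voom fit lacks Onecut2 and Hhex, and Sox17 was not tested at a mean of at least 5 TPM. The depth limits Sox17 most, at 25 to 82 reads per library.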
